A study of Mus musculus with 4 samples.

Results

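The metalloproteases and inhibitors described here are the mouse genes named Mmp, Timp, Adam or Adamts with a number, taken from the gene names of the array's non-control probes. The rule gave 79 genes, measured by 117 probes, out of 24357 genes with a name on the array. The probe with the highest mean signal over both channels and all arrays stood for a gene. No member's name changed when probe names were updated through RefSeq.

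The samples were total RNA of NMRI mouse ureters, dissected at E18.5, shortly before birth. The mutant, called cKO here, carried Pax2-cre/+ together with Trp63(dN-flox/dN-flox), and the control had Trp63(dN-flox/?), with no cre listed. Both groups thus carried at least 1 floxed allele, while Cre recombinase under the Pax2 promoter was listed only for the cKO. Pax2 is active in the nephric duct and its derivatives, among them the ureter epithelium, and the flox allele targets the ΔN form of the transcription factor p63. Each of 4 two-colour Agilent arrays carried 1 cKO RNA and 1 control RNA, with the cKO in the red channel on arrays 1 and 3 and in the green channel on arrays 2 and 4. Array 2 was a male pair and the other 3 arrays were female pairs. The labels do not say whether each RNA came from 1 embryo or several, so p-values measure only the spread between these arrays.

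Matrix metalloproteases (MMP) and ADAMTS proteases are zinc enzymes that cut collagens, proteoglycans and other proteins outside the cell. ADAM proteases sit in the cell membrane and release the outer parts of membrane proteins such as growth factors, cadherins and Notch receptors, although several ADAM proteins lack the residues for catalysis. The TIMP proteins bind these enzymes and block them, and the balance between enzymes and inhibitors governs how matrix is rebuilt in a growing organ. In the ureter, an epithelium that rests on basal cells expressing ΔNp63 is surrounded by mesenchyme and smooth muscle, and both sides make members of these families.

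Median channel signals were 460.3 to 607.3 units and median backgrounds 31 to 82. Array 1 had more spots above background (90.0% in green, 82.6% in red) than arrays 2 to 4, which reached at most 76.5% and 72.9%. Trp63 itself had a log2 ratio of cKO over control of -2.18 ± 0.50 (SD, n = 4 arrays; limma adjusted p = 0.00207), from a probe whose position relative to the removed part was not given in the sources used here. Of 13 epithelial markers, 6 fell and all 13 had a negative ratio, with a median of -0.63. Their summed level lay between 18.72 and 19.40 in the cKO and between 19.58 and 19.74 in the control (log2 of summed intensities). None of the 8 smooth muscle and 8 mesenchyme markers passed the test (medians 0.15 and 0.13), while the hepatocyte and adrenal cortex markers had medians of 1.62 and 0.66. The hepatocyte median was 2.28, 2.59, 1.35 and 0.47 on arrays 1 to 4, and 3 of the 6 markers rose, each losing the call without array 1 or without array 3.

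Promoter sequences were available for 49 of the 79 members in the RefSeq table (build GRCm38.p6, 250 bases before to 50 bases after each start). Among the genes that changed, 7 of 9 had an entry. The stretches below are the 150 bases before the start of 6 of them, shown for comparison with those of the Mmp cluster that follows. Mmp23 also had an entry and is not printed. Capitals mark a GC box (GGGCGG on either strand) or a TATA box (TATAAA), and each line runs 5′ to 3′ on the gene's strand. Adam10 is at chr9:70678832-70678981, Adamts17 at chr7:66839585-66839734 and Timp3 at chr10:86300262-86300411, all on the plus strand, as is Mmp15 at chr8:95352146-95352295. Adam22 at chr5:8368161-8368310 and Adamts1 at chr16:85803114-85803263 lie on the minus strand.
Adam10: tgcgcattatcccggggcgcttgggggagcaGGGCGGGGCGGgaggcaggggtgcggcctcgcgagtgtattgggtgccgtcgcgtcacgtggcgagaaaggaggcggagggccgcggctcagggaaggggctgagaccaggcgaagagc
Mmp15: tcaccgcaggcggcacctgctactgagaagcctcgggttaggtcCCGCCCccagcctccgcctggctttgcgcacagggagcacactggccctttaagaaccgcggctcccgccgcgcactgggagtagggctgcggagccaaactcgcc
Adamts17: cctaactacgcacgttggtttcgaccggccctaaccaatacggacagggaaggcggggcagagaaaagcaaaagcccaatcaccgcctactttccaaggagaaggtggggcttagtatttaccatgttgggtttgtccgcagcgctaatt
Adam22: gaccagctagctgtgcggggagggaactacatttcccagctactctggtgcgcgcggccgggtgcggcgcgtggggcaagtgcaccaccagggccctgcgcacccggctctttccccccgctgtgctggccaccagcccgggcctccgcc
Timp3: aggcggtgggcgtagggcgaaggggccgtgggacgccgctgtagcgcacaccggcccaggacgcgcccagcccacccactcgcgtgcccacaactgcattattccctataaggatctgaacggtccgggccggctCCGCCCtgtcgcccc
Adamts1: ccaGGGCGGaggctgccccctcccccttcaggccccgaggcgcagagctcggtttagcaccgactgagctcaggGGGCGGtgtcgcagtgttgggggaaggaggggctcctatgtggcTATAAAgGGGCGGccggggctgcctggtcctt

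The second set comes from the cluster of 10 Mmp genes on chromosome 9, of which 8 were too dim to be tested. Capitals here mark an AP-1 motif (TGA and TCA with any base between them, on either strand), a TATA box or, in Mmp13, also a p53 family half-site. All 4 are on the plus strand of GRCm38.p6: Mmp3 at chr9:7445672-7445821, Mmp10 at chr9:7502192-7502341, Mmp1a at chr9:7463991-7464140 and Mmp13 at chr9:7272364-7272513.
Mmp3: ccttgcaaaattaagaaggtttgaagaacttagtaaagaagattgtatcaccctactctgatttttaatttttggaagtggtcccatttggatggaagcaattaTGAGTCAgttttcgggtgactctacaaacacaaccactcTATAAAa
Mmp10: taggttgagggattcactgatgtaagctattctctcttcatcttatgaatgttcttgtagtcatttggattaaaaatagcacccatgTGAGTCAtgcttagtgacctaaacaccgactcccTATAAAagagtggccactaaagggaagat
Mmp1a: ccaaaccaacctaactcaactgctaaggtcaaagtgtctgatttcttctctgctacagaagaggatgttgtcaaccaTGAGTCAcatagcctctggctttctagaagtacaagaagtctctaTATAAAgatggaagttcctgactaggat
Mmp13: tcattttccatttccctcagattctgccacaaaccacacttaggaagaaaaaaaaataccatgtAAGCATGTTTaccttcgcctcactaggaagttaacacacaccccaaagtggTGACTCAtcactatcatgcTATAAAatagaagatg

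In the 300-base windows, searched on both strands, an AP-1 motif was present in 8 and a TATA box in 9 of the 10 cluster genes. Over all 32851 promoters of the table, 7.81% held an AP-1 motif and 13.6% a TATA box. The shares are of promoters, while the counts are of genes with a match in any entry. Mmp7, Mmp12 and Mmp23 each also had an entry without a match. Relative to the start, the TATA matches of Mmp3, Mmp8 and Mmp12 lay at -7 to -2, -3 to 3 and 5 to 10. None of the 7 changed genes with an entry held an AP-1 motif or a p53 family half-site, which 8.36% of all promoters hold. A GC box was present in 5 of the 7, in 23 of the 49 members with an entry and in 35.7% of all promoters. The 23 include tested genes that did not pass, such as Adam15, Adamts14 and Mmp11, so a GC box is not particular to the changed genes. The G and C content of the 150 bases before the start was 52.7% to 72.7% in the changed genes and 35.3% to 52.0% in the cluster, against a median of 54% over all promoters. A match is a description of the letters and not a binding site, and the absence of one covers only this window.

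Of the 79 members, 51 were tested, which required a probe well above background on all 4 arrays in at least 1 genotype. All 51 were in fact above background in all 8 channels. The other 28 had no level that could be compared. Among them, Adam20, Adam6a, Mmp7, Mmp13 and Mmp21 were well above background in no channel, and 21 were so in 1 or 2 of the 8. Adam26b passed in 5 channels and Adamts18 in 6, without reaching all 4 arrays of a genotype.

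The untested genes fell in few roles. They were 15 of the 21 ADAM genes known from testis and epididymis, among them Adam2, Adam3 and Adam18, and the cluster genes Mmp1a, Mmp1b, Mmp7, Mmp10, Mmp12, Mmp13, Mmp20 and Mmp27, which include collagenases and matrilysin. Mmp21, Mmp28, Adamts13 (the protease of von Willebrand factor), Adamts18 and Adamts20 complete the list. Every TIMP, gelatinase, membrane-type MMP, somatic ADAM and procollagen-processing ADAMTS on the array was measured in both genotypes.

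Of the 51 tested members, 4 rose and 5 fell in the cKO. Adamts19, Mmp23, Timp3 and Adamts1 rose, and Adam28, Adamts17, Adam22, Mmp15 and Adam10 fell. This is 17.6% of the members, where 8.55% of all 18161 tested genes passed the same threshold (limma adjusted p under 0.05), 2.92% of them upward and 5.63% downward. The families split unevenly: among the 18 ADAM genes 3 fell and none rose, while among the 4 TIMP genes 1 rose and none fell. MMP genes had 1 in each direction of 13, and ADAMTS genes had 2 upward and 1 downward of 16. Whether these splits differ between families was not tested. Fits that omitted array 1 or array 4 each called 2 rises and 3 falls. The fit omitting array 2 called 3 rises and 4 falls, and the fit omitting array 3 called 2 of each.

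**Figure D1:**
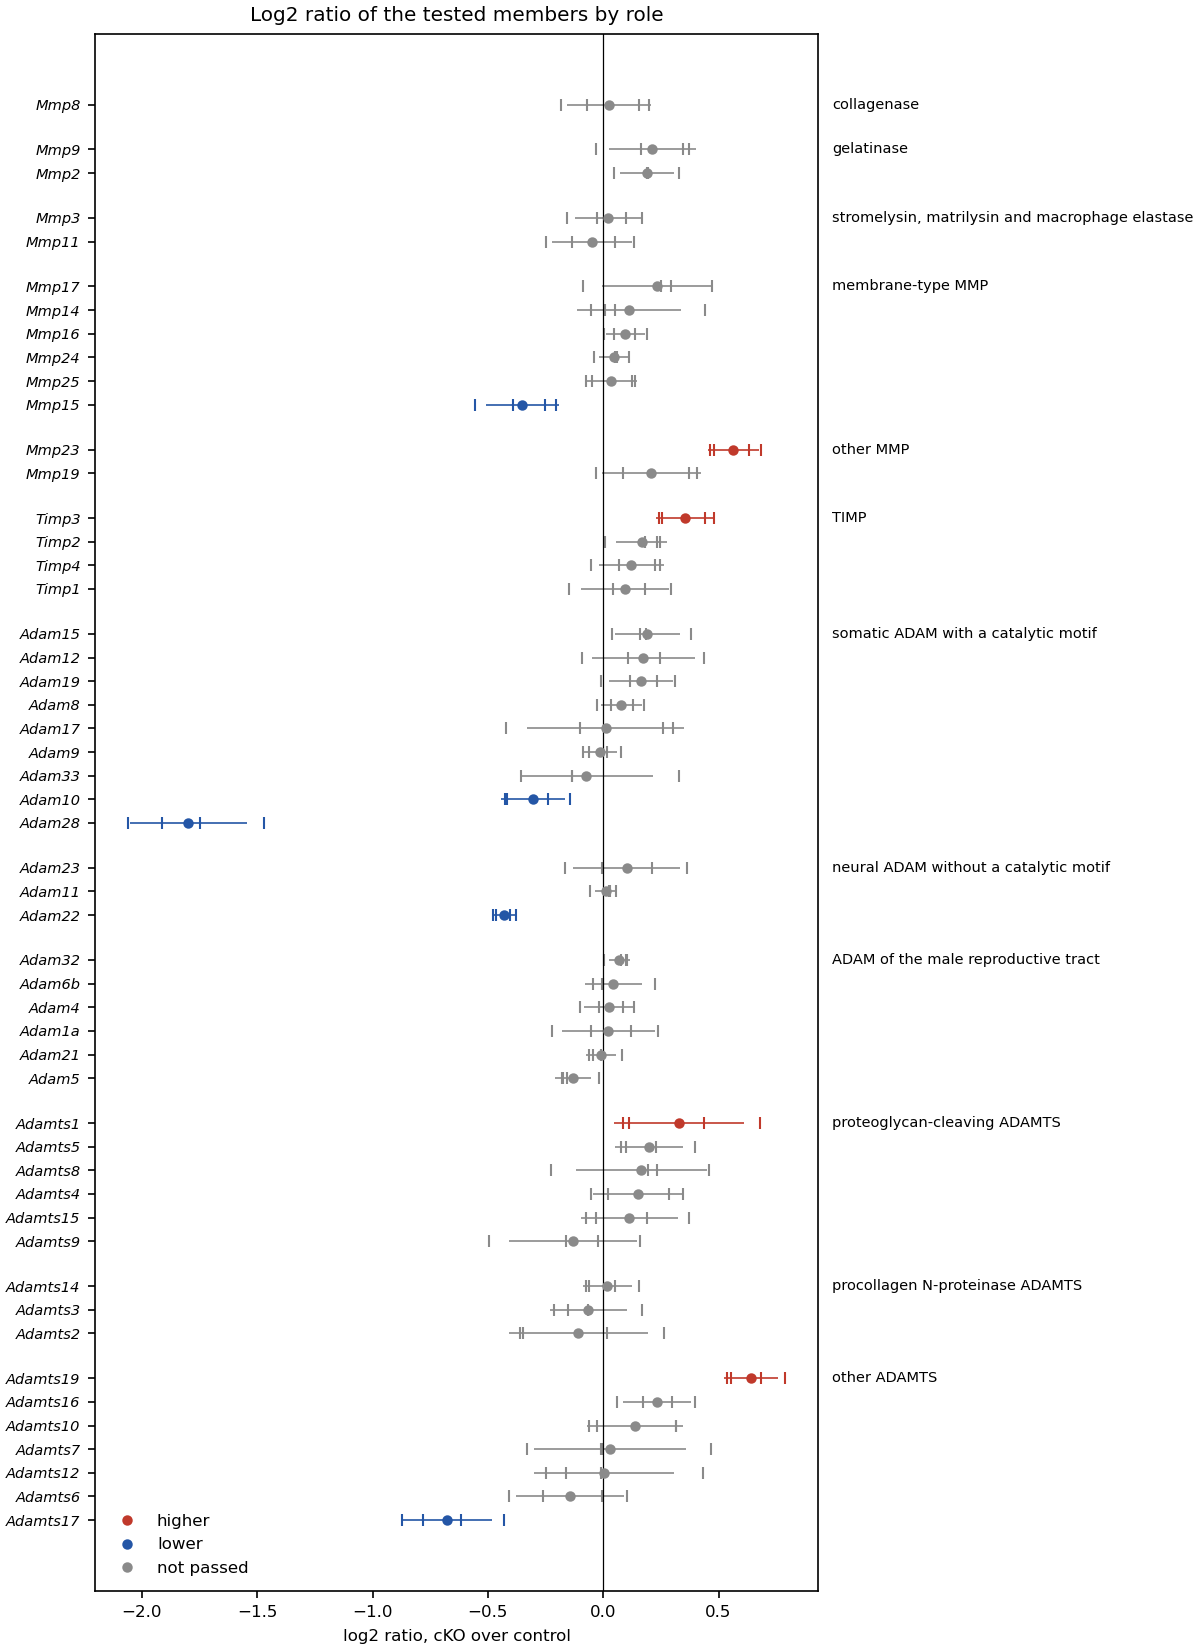
Log2 ratio of cKO over control for the 51 tested members, grouped by role. Points are means, bars the SD over 4 arrays and ticks the single arrays, red for the 4 that rose, blue for the 5 that fell and grey for the 42 that did not pass; Adam28 at -1.80 stands alone to the left, and the grey means lie between -0.14 and 0.23.

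Ratios of most members were small, as were those of most genes. The 42 that did not pass had mean log2 ratios from -0.14 to 0.23, and 82.4% of the tested members lay within 0.25 of 0, against 85.1% of all genes. The median of the members was 0.05 (SD of the 4 array medians 0.06), that of all genes 0.00. Ratios were positive for 37 members and negative for 14, against 9204 and 8957 of all genes. A single member, Adam28, changed by at least 1 on the log2 scale, as 292 of all genes did. At an unadjusted p under 0.05, 7 further members were higher in the cKO and 0 lower, where 7.92% and 7.19% of all genes were (limma). They were Adam15, Adamts5, Adamts16, Mmp2, Mmp9, Mmp17 and Timp2.

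**Figure D2:**
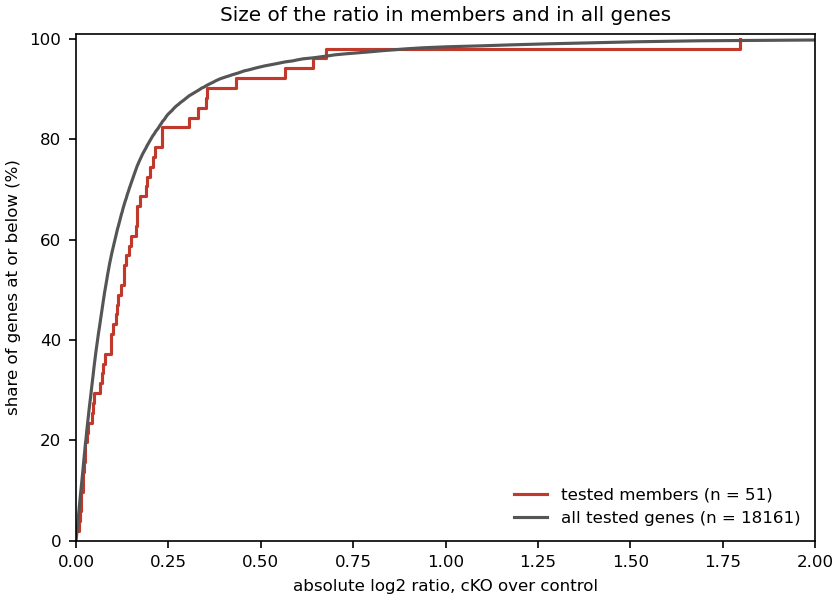
Share of genes (vertical axis, percent) whose absolute log2 ratio of cKO over control is at or below the value on the horizontal axis, drawn up to 2. The red steps are the 51 tested members and the grey line all 18161 tested genes; the members' steps run below the grey line over most of the range up to the ratio of Mmp23 (0.56) and reach their last step at Adam28.

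Levels of cKO and control did not overlap over the 4 arrays for 7 members, or 13.7%, where 9.86% of all genes did not overlap. These were Adam28, Adamts17, Adam22, Adam10, Adamts19, Timp3 and Mmp2, of which Mmp2 did not pass the test. All 4 arrays gave 1 sign in 33.3% of the members and in 30.6% of all genes. When the separate channels were fitted with the array as a replicate block, 7 members rose and 5 fell, Adam15, Adamts5 and Mmp2 being the added ones, and calls over all genes grew to 1229 upward and 1722 downward.

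**Figure D3:**
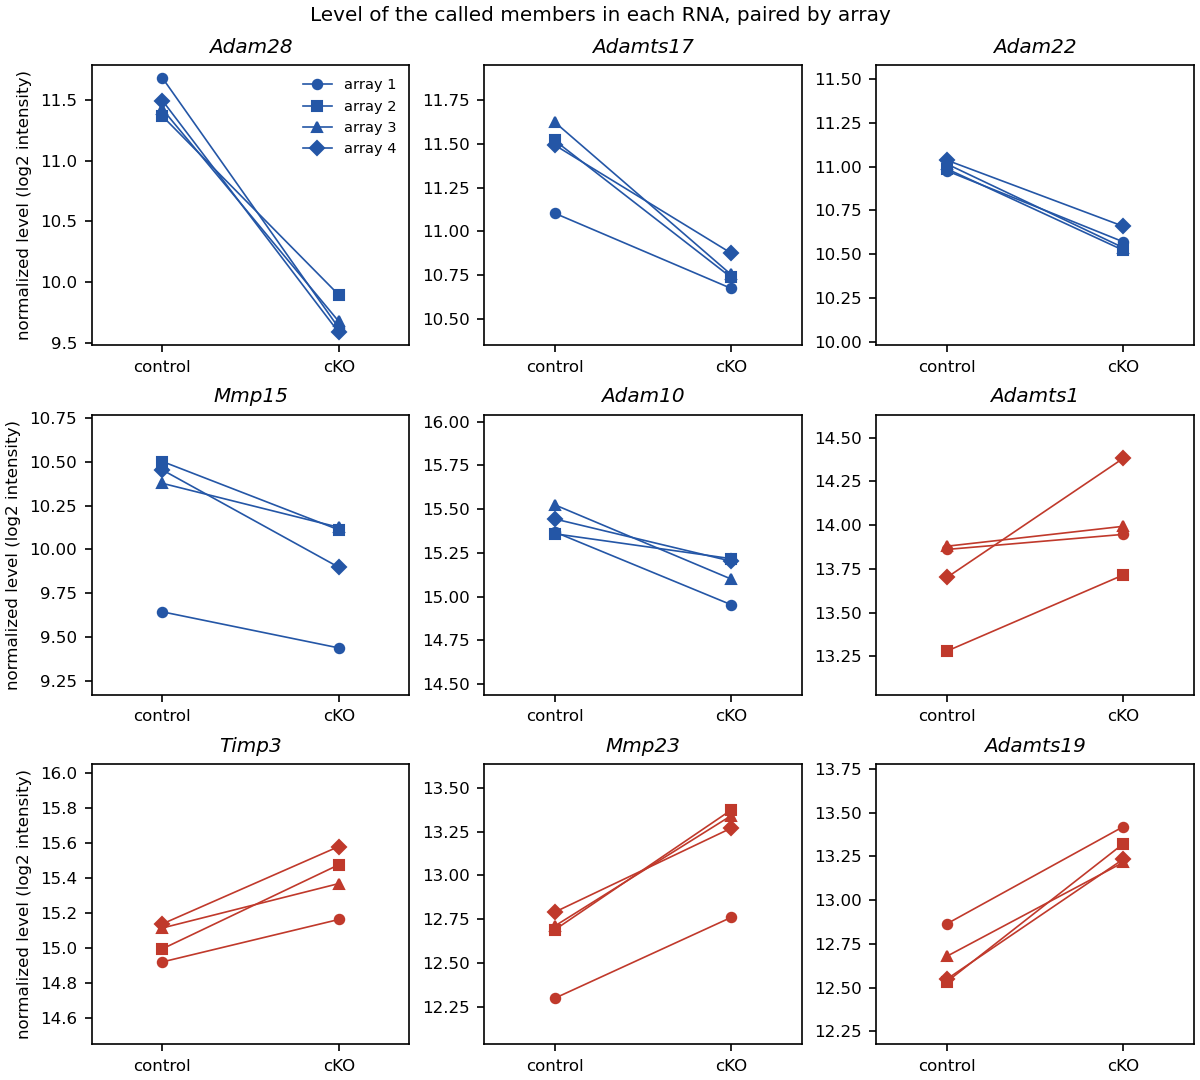
Normalised level (log2 intensity) of the 9 members that passed the test, in control and cKO RNA, with a line joining the RNAs of 1 array. All 4 lines fall in Adam28, Adamts17, Adam22, Mmp15 and Adam10 and rise in Adamts1, Timp3, Mmp23 and Adamts19, with array 1 low in both groups for Mmp15 and Mmp23.

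Among the membrane proteases, Adam28 fell most. It encodes a membrane ADAM with a catalytic site, known from lymphocytes and several epithelia. Its level was 9.62, 9.89, 9.67 and 9.58 in the cKO and 11.68, 11.37, 11.42 and 11.49 in the control on arrays 1 to 4. Every control RNA was thus higher than every cKO RNA, with a wide gap between the groups. The ratio was -1.80 ± 0.25 (SD, n = 4; limma adjusted p = 0.00107), a 3.48-fold decrease and the 42nd largest fall of all tested genes. The probe lies at chr14:69227924-69227983 (mm9), and another Adam28 probe gave -1.33 ± 0.15 (limma adjusted p over probes 0.000847). In RNA of a whole organ, fewer cells of a type and less RNA per cell cannot be told apart. The epithelial markers fell beside it as given above, and 3 of 5 mast cell markers fell. The 6 leukocyte markers had a median of -0.08 and none passed. They were Ptprc, Cd68, Csf1r, Lyz2, Adgre1 and Itgam, with none particular to lymphocytes, so they say little of lymphocytes. The part of epithelial cells, mast cells or leukocytes in the fall of Adam28 was not tested.

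Adam10, which sheds Notch receptors, E-cadherin and many other membrane proteins, fell by a small amount. Its level was 14.95, 15.22, 15.10 and 15.20 in the cKO against 15.37, 15.36, 15.52 and 15.44 in the control. The groups did not overlap, but the nearest values lay 0.14 apart on array 2, where the ratio was -0.14. On the other arrays it was -0.42, -0.42 and -0.24, and the mean was -0.31 ± 0.14 (limma adjusted p = 0.0275). The decrease was larger with the cKO in the red channel (-0.42) than in the green (-0.19). Without array 1, 2, 3 or 4 the adjusted p was 0.117, 0.0725, 0.109 and 0.127, so the call needs all 4 arrays.

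Adam17, the sheddase of TNF and of EGF receptor ligands, did not pass. Its ratio was -0.10, 0.26, -0.42 and 0.30 on arrays 1 to 4, a mean of 0.01 ± 0.34. The sign followed the dye, with -0.26 for the cKO in red and 0.28 for the cKO in green. Adam9 stood at -0.01 ± 0.07, a tight value around 0. Adam12, Adam15 and Adam19, known from mesenchyme, muscle and vessels, had ratios of 0.17, 0.19 and 0.16, and those of Adam8 and Adam33 were 0.08 and -0.07. Of the 9 somatic ADAM genes with a catalytic motif, 2 fell and none rose, where 5.63% of all genes fell and 2.92% rose. The median of the 9 was 0.01.

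Adam22 belongs to the ADAM proteins without a catalytic motif and is known as a receptor of LGI proteins in the nervous system. Its level was 10.57, 10.52, 10.54 and 10.66 in the cKO and 10.98, 10.99, 11.01 and 11.04 in the control. The spread within each group was smaller than the gap between them. The ratio was -0.43 ± 0.05 (limma adjusted p = 0.0102), a 1.35-fold decrease. A further Adam22 probe above background gave -0.09 ± 0.15 (limma adjusted p over probes 0.531), but at levels of 6.63 to 7.01 it was hardly brighter than the dimmest probes above background, so it says little of this gene. With the mean of both probes the ratio was -0.26 (limma adjusted p = 0.0601). Without array 3 the adjusted p was 0.0527. The related Adam11 and Adam23 had ratios of 0.01 and 0.10, another Adam11 probe gave 0.22 ± 0.09 (limma adjusted p over probes 0.0827) with a positive value on every array, and none of 5 nerve and glia markers passed.

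The 6 tested ADAM genes of the male reproductive tract all stayed below the threshold. Their ratios ran from -0.13 in Adam5 to 0.07 in Adam32, with a median of 0.02. Adam1a, Adam4, Adam6b and Adam21 lay between these. Adam4, Adam6b, Adam21 and Adam32 were dim, with levels from 6.91 to 7.98, so their small ratios say little about a change. The array of the male pair, array 2, gave -0.17 for Adam5 and 0.10 for Adam32, inside the range of the other arrays for Adam5 and just above it for Adam32.

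Among the MMP genes, the membrane-type member Mmp15 fell. It encodes a membrane-bound protease able to activate pro-MMP2. Levels were 9.44, 10.11, 10.13 and 9.90 in the cKO and 9.64, 10.50, 10.38 and 10.45 in the control. Array 1 was low for both RNAs, so the groups overlap although each cKO value is below its partner. The ratio was -0.35 ± 0.16 (limma adjusted p = 0.0236). The adjusted p was 0.0947, 0.098 and 0.105 without array 1, 3 or 4, 0.0494 without array 2 and 0.0564 in the deposited value table.

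The other membrane-type genes did not pass. Mmp14, which activates pro-MMP2 and cuts fibrillar collagen, had a ratio of 0.11 ± 0.22 that came mostly from array 1 (0.44 against -0.05 to 0.05). Mmp16, Mmp17, Mmp24 and Mmp25 ranged from 0.03 to 0.23. Levels of Mmp24 (6.45 to 7.21) and Mmp25 (6.41 to 7.08) were close to those of the dimmest probes above background, so their ratios say little. The gelatinases Mmp2 and Mmp9, which cut denatured collagen and type IV collagen of basement membranes, had ratios of 0.19 ± 0.11 (limma adjusted p = 0.165) and 0.21 ± 0.19 (0.204). Mmp2 was higher in the cKO on every array, by 0.33, 0.20, 0.05 and 0.19.

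Mmp23 rose. It encodes a small MMP that is anchored by its N-terminal part, lacks the hemopexin domain and is released by cleavage. Its level was 12.76, 13.37, 13.34 and 13.27 in the cKO and 12.30, 12.69, 12.71 and 12.79 in the control. The cKO RNA of array 1 lay just below the control of array 4, and the other cKO values were above every control. The ratio was 0.56 ± 0.11 (limma adjusted p = 0.00849), a 1.48-fold increase that passed without any one of the arrays (adjusted p 0.0238 to 0.0403). In a fit of the separate channels with no replicate block the adjusted p was 0.194.

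The remaining MMP genes did not pass. Mmp19, a stromal MMP, stood at 0.21 ± 0.22, with 0.37 and 0.41 on arrays 2 and 3 and 0.09 and -0.03 on arrays 1 and 4. Mmp11, the stromelysin of mesenchyme next to epithelium, gave -0.05 ± 0.17. In the chromosome 9 cluster, whose promoters are printed above, only Mmp3 and Mmp8 were tested. Mmp3, a stromelysin, had a ratio of 0.02 ± 0.14 and Mmp8, the collagenase of neutrophils, 0.03 ± 0.18. Both were dim, at levels of 7.10 to 7.90 and 7.13 to 7.45, so these ratios say little about a change.

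The TIMP genes all had positive mean ratios, and 1 of the 4 rose, where 2.92% of all genes did. Timp3 encodes the inhibitor that binds to the matrix and blocks ADAM17, ADAM10 and aggrecan-cleaving ADAMTS enzymes beside the MMPs. Its level was 15.16, 15.47, 15.37 and 15.58 in the cKO and 14.92, 14.99, 15.11 and 15.14 in the control. The lowest cKO value, on array 1, was just above the highest control value. The ratio was 0.35 ± 0.12 (limma adjusted p = 0.0159), a 1.28-fold increase. The call rests on all 4 arrays, as the adjusted p was 0.0651 to 0.0776 when any one was left out.

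Timp2, which also takes part in the activation of pro-MMP2, was higher on every array by its brightest probe, with a mean of 0.17 ± 0.11 (limma adjusted p = 0.187). Another Timp2 probe gave 0.14 ± 0.19 (limma adjusted p over probes 0.363), with -0.11 on array 3. Timp4 and Timp1 had ratios of 0.12 ± 0.14 and 0.09 ± 0.19, each negative on array 2. The median of the 4 TIMP genes was 0.14, and those of the smooth muscle, mesenchyme and endothelium markers were 0.15, 0.13 and 0.15. Whether the TIMP values follow these cells was not tested.

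Among the ADAMTS genes, Adamts19 rose and Adamts17 fell. Both belong to the same subgroup of the family, and Adamts17 is known from a human disorder of fibrillin-rich tissue. For Adamts19 the level was 13.42, 13.32, 13.21 and 13.23 in the cKO and 12.86, 12.53, 12.68 and 12.55 in the control. The groups were apart on every array pair, and the ratio was 0.64 ± 0.12 (limma adjusted p = 0.003), a 1.56-fold increase. It passed without any one array (adjusted p 0.0145 to 0.02).

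Adamts17 moved the opposite way by a like amount. Its level was 10.67, 10.74, 10.75 and 10.88 in the cKO and 11.10, 11.52, 11.62 and 11.49 in the control. The fall was smallest on array 1, whose control RNA was the lowest of the 4, and the groups did not overlap. The ratio was -0.68 ± 0.19 (limma adjusted p = 0.0129), and another Adamts17 probe gave -0.46 ± 0.11 (limma adjusted p over probes 0.0117). The adjusted p stayed between 0.0147 and 0.0491 without any one array.

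Adamts1 encodes a protease of versican and aggrecan, and mice without it are known for defects of the urinary tract. Its level was 13.95, 13.72, 13.99 and 14.38 in the cKO and 13.86, 13.28, 13.88 and 13.70 in the control. Array 2 was low in both groups and array 4 high in the cKO, and the groups overlap. The ratio was 0.09, 0.43, 0.11 and 0.68 on arrays 1 to 4, so it was 0.10 with the cKO in red and 0.56 with the cKO in green. The mean of 0.33 ± 0.28 passed with the dye in the model (limma adjusted p = 0.0388) and not with no dye term (0.116). Without array 1, 3 or 4 the adjusted p was 0.141, 0.134 and 0.142, and it was 0.0595 with Agilent's processed signals and 0.0809 in the deposited value table.

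The other proteoglycan-cleaving genes did not pass. Adamts5, an aggrecanase and versicanase, was higher on every array by its brightest probe, with a mean of 0.20 ± 0.15 (limma adjusted p = 0.102). A further Adamts5 probe gave 0.12 ± 0.23 (limma adjusted p over probes 0.541), with -0.06 and -0.07 on arrays 3 and 4. Adamts4, Adamts8 and Adamts15 had ratios of 0.15, 0.17 and 0.11, and Adamts9 had -0.13 ± 0.28. Another Adamts4 probe gave -0.21, -0.22, 0.03 and 1.98 on arrays 1 to 4, a mean of 0.40 ± 1.06. The procollagen N-proteinases Adamts2, Adamts3 and Adamts14, which trim fibrillar procollagens, stood at -0.11, -0.07 and 0.02. Adamts3 was dim, at levels of 7.07 to 7.69. Adamts16, a gene known from kidney and gonad, came nearest to the threshold among the members that missed it, at 0.23 ± 0.15 (limma adjusted p = 0.0677). A dimmer Adamts16 probe, at levels of 6.70 to 7.11, gave -0.01 ± 0.11 (limma adjusted p over probes 0.972). Adamts6, Adamts7, Adamts10 and Adamts12 ranged from -0.14 to 0.14.

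**Figure D4:**
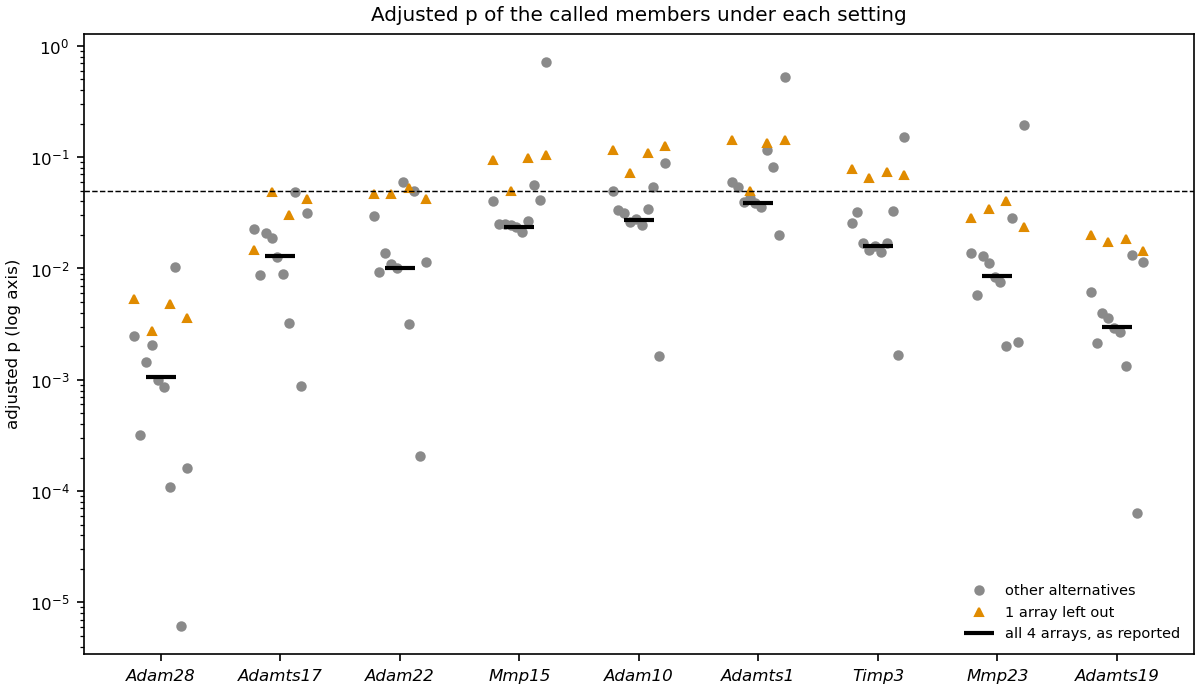
Limma adjusted p (log axis) of the 9 members that passed, under each processing alternative. Black bars are the values as reported, orange triangles the fits without 1 array and grey points the other alternatives, with the threshold of 0.05 dashed; Adam28, Adamts17 and Adamts19 stay below the line throughout, while the triangles of Timp3 and Adam10 all lie above it.

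Adam28 has neighbours of its own family on chromosome 14. Adam7, Adamdec1 and Adam28 lie in this order in the RefSeq annotation, and Adam7, a gene of the epididymis, was above background in 1 of 8 channels and not tested. Adamdec1, which encodes a secreted ADAM-like protease of gut macrophages and stroma, fell by 0.78 ± 0.23 on the log2 scale (limma adjusted p = 0.00422). Its ratio on arrays 1 to 4 was -1.10, -0.58, -0.78 and -0.67, and that of Adam28 was -2.06, -1.47, -1.75 and -1.91. Both were thus lowest on array 1. The median of the epithelial markers, at -1.18, -0.26, -0.52 and -0.70 on arrays 1 to 4, was lowest there too. A low value on array 1 is therefore not particular to these neighbours, and its source was not tested.

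Genes that regulate or mature the proteases make up a first list beside the members. Among 19 tested inhibitors and regulators outside the rule, 2 rose and 3 fell, with a median of -0.06, where all genes had 8.55% called and a median of 0.00. Rhbdf2, which encodes iRhom2, a partner needed for the maturation of ADAM17, fell with a ratio of -0.69 ± 0.08 (limma adjusted p = 0.0031). Tspan15, which encodes a tetraspanin that carries ADAM10 to the cell surface, rose with 0.61 ± 0.14 (limma adjusted p = 0.0102). Clu, a secreted chaperone, fell with -1.20 ± 0.37 (limma adjusted p = 0.00603). Pcsk6, a convertase that activates proenzymes, and Tspan17, another ADAM10 tetraspanin, passed at 0.25 and -0.24, and neither did when any one array was left out.

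Reck, a membrane inhibitor of MMPs, had a ratio of 0.21 that did not pass, and Furin, which activates many members, had 0.06. Of the 7 ADAMTS-like genes, which have the ancillary domains of the family and no protease, 2 fell, where 5.63% of all genes did. These were Papln, at -1.35 ± 0.52 (limma adjusted p = 0.0196), and Adamtsl3, at -0.63 ± 0.18 (limma adjusted p = 0.0108). Papln did not pass without array 2 (0.065) or array 4 (0.0545), and Adamtsl3 did not without array 4 (0.0502). The median of the list was 0.03.

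Among 18 other extracellular metalloproteases, 1 rose and 2 fell, with a median of -0.03, where 2.92% of all genes rose and 5.63% fell. Beside Adamdec1, Cpa3 fell, the carboxypeptidase of mast cells, at -0.99 ± 0.08 (limma adjusted p = 0.00123). The mast cell markers it belongs to had a median of -0.45, and their summed level was 12.28 to 12.75 in the cKO and 12.77 to 13.18 in the control. Pappa2, a protease of IGF-binding proteins, rose by 0.39 and did not pass when any one array was left out. In the plasminogen system, whose enzyme plasmin activates pro-MMPs, 1 of 8 genes passed, where 8.55% of all genes did. It was the urokinase receptor gene Plaur at 0.26, which also did not pass when any one array was left out. The median of the system was 0.27, with Plg, Serpinf2 and Klkb1, genes made in liver, at 1.01, 0.60 and 0.30 and not passing. These 3 were highest on array 2 and lowest on array 4, as was the median of the hepatocyte markers, and the part of such cells in the list's median was not tested.

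Of 30 tested genes for membrane proteins known to be shed by ADAM10 or ADAM17, 6 fell and 1 rose, with a median of -0.10. Falls also outnumbered rises over all genes, at 5.63% against 2.92%, and the difference was not tested. Sdc1, an epithelial heparan sulfate proteoglycan, had a ratio of -1.42 ± 0.11 (limma adjusted p = 0.00057). Areg, a ligand of the EGF receptor, had -1.27 ± 0.10 (limma adjusted p = 0.000634), but its cKO levels of 6.25 to 6.83 were above background on 2 of 4 arrays and near the lowest levels that passed there (6.30 to 6.67), so the size of the fall is uncertain. Kl, a coreceptor of FGF23, fell 2.01-fold (SD 0.13 on the log2 scale), and Il6ra, the receptor of interleukin 6, had -0.58 ± 0.11. The remaining falls, Cdh1 and Jag1, and the rise, Vcam1, did not pass without array 1 or without array 3 (limma adjusted p 0.0597 to 0.112). The list shares Cdh1 with the epithelial markers, whose median was -0.63, and the part of the epithelium in these values was not tested.

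Matrix substrates of the MMP and ADAMTS enzymes had 1 rise and 3 falls among 21 tested genes, with a median of 0.07. Over all genes, 2.92% rose and 5.63% fell. Among the falls were Lamb3 (-1.45 ± 0.12), a laminin chain of epithelial basement membranes, and Fmod (-0.82 ± 0.28), a small proteoglycan of collagen fibrils. Fmod did not pass without array 2 (limma adjusted p = 0.0566). Spp1, a secreted phosphoprotein cut by MMPs, rose with 2.62 ± 0.55 (limma adjusted p = 0.003). The versican gene Vcan, a target of Adamts1 and Adamts5, had a ratio of 0.20 that did not pass.

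**Figure D5:**
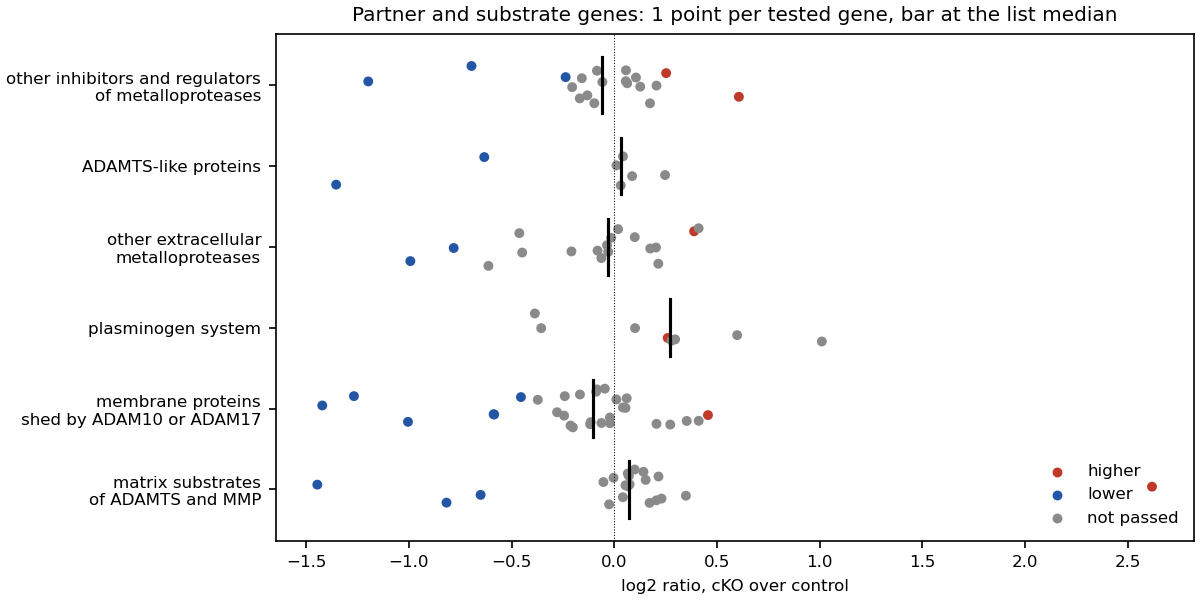
Log2 ratio of cKO over control for the tested genes of 6 lists around the proteases, 1 point per gene, with the list median as a black bar. Red points rose, blue points fell and grey points did not pass; the plasminogen system has its median at 0.27 and the other lists between -0.10 and 0.07, and the points farthest out are Spp1 on the right and Lamb3, Sdc1 and Papln on the left.

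The ratios of the male pair were compared with those of the female pairs in the same model. No gene passed (limma), with 861 of 18161 genes, or 4.74%, at an unadjusted p under 0.05 and the lowest adjusted p of the members at 0.822. Adamts12 and Adam23 were the members at an unadjusted p under 0.05, with differences of 0.68 and -0.53. A single male pair and 1 residual degree of freedom limit this comparison.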

How the data were processed

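Per the submitters' processing notes, the authors used Agilent Feature Extraction 10.7.3.1 to read the 4 two-colour arrays. The deposited scanner files hold linear spot intensity per channel and a log10 ratio of red over green, and the deposited value table holds log2 ratios centred at a median of 0. Set against the scanner ratios turned to cKO over control, that table had slopes of 0.991 to 1.00 per array, so its direction is cKO over control. It holds 7718 to 12487 exact zeros per array, with a normalisation not given in the sources used here. Per the labels, 200 ng of total RNA were amplified in 1 round and coupled to AlexaFluor555 or AlexaFluor647. The arrays shared 1 slide and 1 scan.

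Mean signals were background-corrected with normexp (offset 50) and normalised within arrays by loess, with control spots at weight 0. Outlier-flagged spots (3.04% to 3.58%) were dropped and the spots of a probe averaged. Levels are channel intensities after Aquantile normalisation between arrays. Of 39429 probes, 28328 took their name from RefSeq through an accession, 3400 through a symbol and 243 through a former symbol, while 1777 kept the file's name and 5681 had none. Log2 ratios of the 18161 genes that passed the filter were fitted with limma 3.58.1 in R 4.3.3 with a dye term (2 residual degrees of freedom), with Benjamini-Hochberg adjustment over all 18161. Errors are SDs over 4 arrays and include the dye effect, which the p-values do not. The number of arrays limits the precision.

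The text names every member past the threshold, in each role the 2 with the highest signal and the largest ratio, and up to 4 genes per related list with the lowest p. Other named genes were chosen after their values were seen. Members, roles and lists were chosen with earlier results of these data known, and the roles of Adam6a and Adam6b were added once the files had been read. Alternatives were Agilent's processed signals, median centring, scale normalisation, filters on dim probes, the mean of probes, no dye term, the deposited table, separate channels with and without the array as a replicate block (statmod 1.5.0, intra-spot correlation 0.741), and each array left out. Pairing comes from the shared array. Probe positions are in mm9 and promoters in GRCm38.p6. The values of 1 gene of a related list are not reported here.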

Additional observations from a re-analysis of the deposited data

Results flagged for a closer look

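In groups of 4 arrays, a value was set apart when its gap to the nearest other value, as a share of the whole range, exceeded the critical value of Dixon's test, which chance does in about 1 in 20 groups. Among 69 groups tested, 4 did. The control level of Mmp15 (0.855) and the cKO level of Mmp23 (0.832) were both set apart by array 1, where they were 9.64 and 12.76. The ratio of Adam5 (0.867) was set apart by -0.02 on array 4 against -0.16 to -0.18 on the others, and that of Adam6b (0.846) by 0.23 on array 4 against -0.04 to 0.00.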

How the results depend on the processing

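The 9 members that passed gave 126 values over 14 alternatives. All 126 kept their direction and 27 lost the call: 8 in Adamts1, 6 in Adam10, 5 each in Timp3 and Mmp15, 2 in Adam22, 1 in Mmp23 and 0 in Adam28, Adamts17 and Adamts19. Of the 42 other members, 3 passed under an alternative. Without 1 array, 2 to 3 members rose (4 as reported) and 2 to 4 fell (5 as reported), and over all genes 277 to 359 rose (530 as reported) and 554 to 768 fell (1023 as reported); an orientation left with a single array has that array assumed to vary like the others. With separate channels and the replicate block, 7 members rose and 5 fell, and 1229 and 1722 of all genes. With no replicate block, 1 member rose and 3 fell, and 124 and 440 of all genes. In the deposited value table, 3 members rose and 3 fell, and 259 and 596 of all genes. The male pair differed from the female pairs in 5 genes with no dye term and in 0 under the other alternatives that gave a value; leaving out an array and the separate channels gave none. The cause of these changes was not tested. For 28 members the signal over background was too low for a ratio.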
